A study of Mus musculus with 29 samples.

Results

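The endothelial marker genes described here are Flt1, Kdr, Tek, Tie1, Pecam1, Cdh5, Sox17, Sox18, Cldn5 and Eng. They were taken from the table of mouse heart transcript counts by their symbols. They make up 10 of the 23420 genes listed. All 10 passed the filter on low counts, which left 13765 genes. Their levels were followed across 8 groups of hearts, made of 4 genotypes in 2 conditions.

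Endothelial cells line the vessels and chambers of the heart, and capillaries run beside each cardiac muscle cell. Their growth is governed by vascular endothelial growth factor (VEGF). Kdr is its main signalling receptor, while Flt1 binds the ligand more tightly, signals weakly and is also shed as a decoy. Tek (Tie2) is the receptor for the angiopoietins that steady mature vessels, and Tie1 is its orphan partner. Eng is a co-receptor for ligands of the TGF-beta and BMP family. Cdh5 (VE-cadherin), Pecam1 (CD31) and Cldn5 sit at contacts between endothelial cells, the first in adherens junctions and the last in tight junctions. Sox17 and Sox18 are related transcription factors of vascular development, and Sox17 is known for its role in arteries.

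The mice were C57BL/6J, with 12 weeks given as their age. The wild-type group carried no ablation. The PKCdelta group had a postnatal, cardiac ablation of protein kinase C delta, whose Cre driver is not given in the sources used here. In the PKCepsilon group protein kinase C epsilon was knocked out in the germline, and the combined group was a knockout of both. Each genotype was sampled unstressed, with no sham operation described, and 4 weeks after transverse aortic constriction (TAC), in which a tied aorta makes the left ventricle pump against pressure. Unstressed groups held 4 wild-type, 3 PKCdelta, 3 PKCepsilon and 4 combined libraries, and TAC groups held 4, 3, 4 and 4. The extraction protocol names the ventricular apex and the tissue label the whole heart. No label ties a library to an animal beyond its title, so the spread that each p-value is set against is that of these libraries, and may be technical in part.

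Each library had 10523709 to 17314739 counts assigned to genes. Prkce, the gene for PKCepsilon, stood at 6.59 to 11 CPM (counts scaled to a common library total) in the libraries labelled PKCepsilon or combined, except at 31.5 CPM in the library labelled combined TAC replicate 2. In wild-type and PKCdelta libraries Prkce lay between 33.3 and 52.9 CPM, except at 24.0 CPM in wild-type TAC replicate 2. Both of these TAC libraries are doubted, and values without them are given where they matter. Prkcd, the gene for PKCdelta, was no lower in unstressed PKCdelta (16.3 to 18.7 CPM) than in wild-type libraries (13.4 to 15.9 CPM). Which part of it was deleted is not given in the sources used here, so counts over the whole gene do not check that label. Sex labels went against sex-chromosome transcripts: of the libraries labelled male, 8 unstressed and 4 TAC had at most 10 CPM of 4 Y-linked genes summed, and 4 TAC libraries labelled female had more. Above 10 CPM of both Xist and Y-linked transcripts were 2 unstressed and 8 TAC libraries. The Rn45s ribosomal RNA gene took 9.9% to 14.1% of counts in unstressed and 4.51% to 8.59% in TAC libraries. In 4 groups a pair of libraries differed far less than the other pairs did, and the fit was repeated with each such pair summed.

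In the start regions of these genes, RefSeq sequence (GRCm38.p6) was at hand for 6 of the 10, namely Flt1, Kdr, Tek, Tie1, Cldn5 and Eng. The 250 bases before each start were searched on both strands for the ETS core in the forms CGGAAG or AGGAAG, the SOX motif AACAAT and the GATA motif AGATAA. ETS factors are the best known regulators of endothelial genes, and Sox17 and Sox18 belong to the SOX family. Flt1, Tie1 and Eng each held 2 ETS matches, Tek held 1 SOX match, and Kdr and Cldn5 held none of the motifs. Of 32851 such windows over all genes, 39.2% held the ETS core, 9.42% the SOX and 9.99% the GATA motif, so the matches describe letters and not sites of binding. The windows of Eng and Cldn5 are shown whole because Cldn5 had the largest and Eng the smallest TAC response in wild-type hearts, followed by the nearest match in Flt1 and the match in Tek. Matches stand in capitals, on either strand, and each window runs 5′ to 3′ on the strand of its gene. The Flt1 and Kdr windows lie inside the annotated spans of their genes and the Tek window reaches into that of Tek, since RefSeq lists the start used here further in. Annotated exons overlap the Kdr window (3 entries) and the Tie1 window (1 entry), so neither is free of exon sequence.
Eng, chr2:32646345-32646594, plus strand, ending 1 base before the start: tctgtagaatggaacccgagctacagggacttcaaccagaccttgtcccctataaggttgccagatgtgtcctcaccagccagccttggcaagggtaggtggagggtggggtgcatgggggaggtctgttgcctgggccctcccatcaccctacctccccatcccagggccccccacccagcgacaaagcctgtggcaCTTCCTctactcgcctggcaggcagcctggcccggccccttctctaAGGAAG
Cldn5, chr16:18776597-18776846, plus strand, ending 1 base before the start: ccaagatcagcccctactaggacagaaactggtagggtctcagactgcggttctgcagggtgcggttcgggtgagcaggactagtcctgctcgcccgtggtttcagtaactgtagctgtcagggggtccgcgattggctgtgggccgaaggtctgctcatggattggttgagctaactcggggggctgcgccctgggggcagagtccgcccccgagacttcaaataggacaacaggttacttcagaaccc
Flt1, chr5:147726047-147726076, minus strand, ETS match from base -53: aggtgccggggtAGGAAGtgggctggggaa
Tek, chr4:94739214-94739243, plus strand, SOX match from base -63, its letters read on the reverse strand: gaggatacccctATTGTTcctgaaaatgct

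Per kilobase of exon, these genes differed widely in level. On the RPKM scale (CPM divided by exon length in kilobases), with exon lengths from GENCODE vM21, the median over the 29 libraries was 86.3 for Cdh5 (range 68.3 to 99.4) and 74.5 for Eng (63.5 to 91). A middle group followed, whose ranges overlapped: Sox18 at 32.2, Tie1 at 30.1, Pecam1 at 30.1 and Kdr at 25.4 RPKM. Tek, Cldn5 and Flt1 lay lower, at 12.9, 12.4 and 12.1 RPKM, and again their ranges overlapped. Sox17 was lowest at 1.82 RPKM (0.892 to 2.92), which rests on 47 to 216 counts per library. The exons of Sox17 overlap an annotated gene on the other strand, Gm37587, over 16.8% of their length, and those of Eng overlap Fpgs over 1.51%, so some of their reads could belong to those genes in libraries without strand. All other members had no such overlap. Since whole tissue was sequenced, fewer endothelial cells and less RNA per endothelial cell cannot be told apart in any value below.

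**Figure D1:**
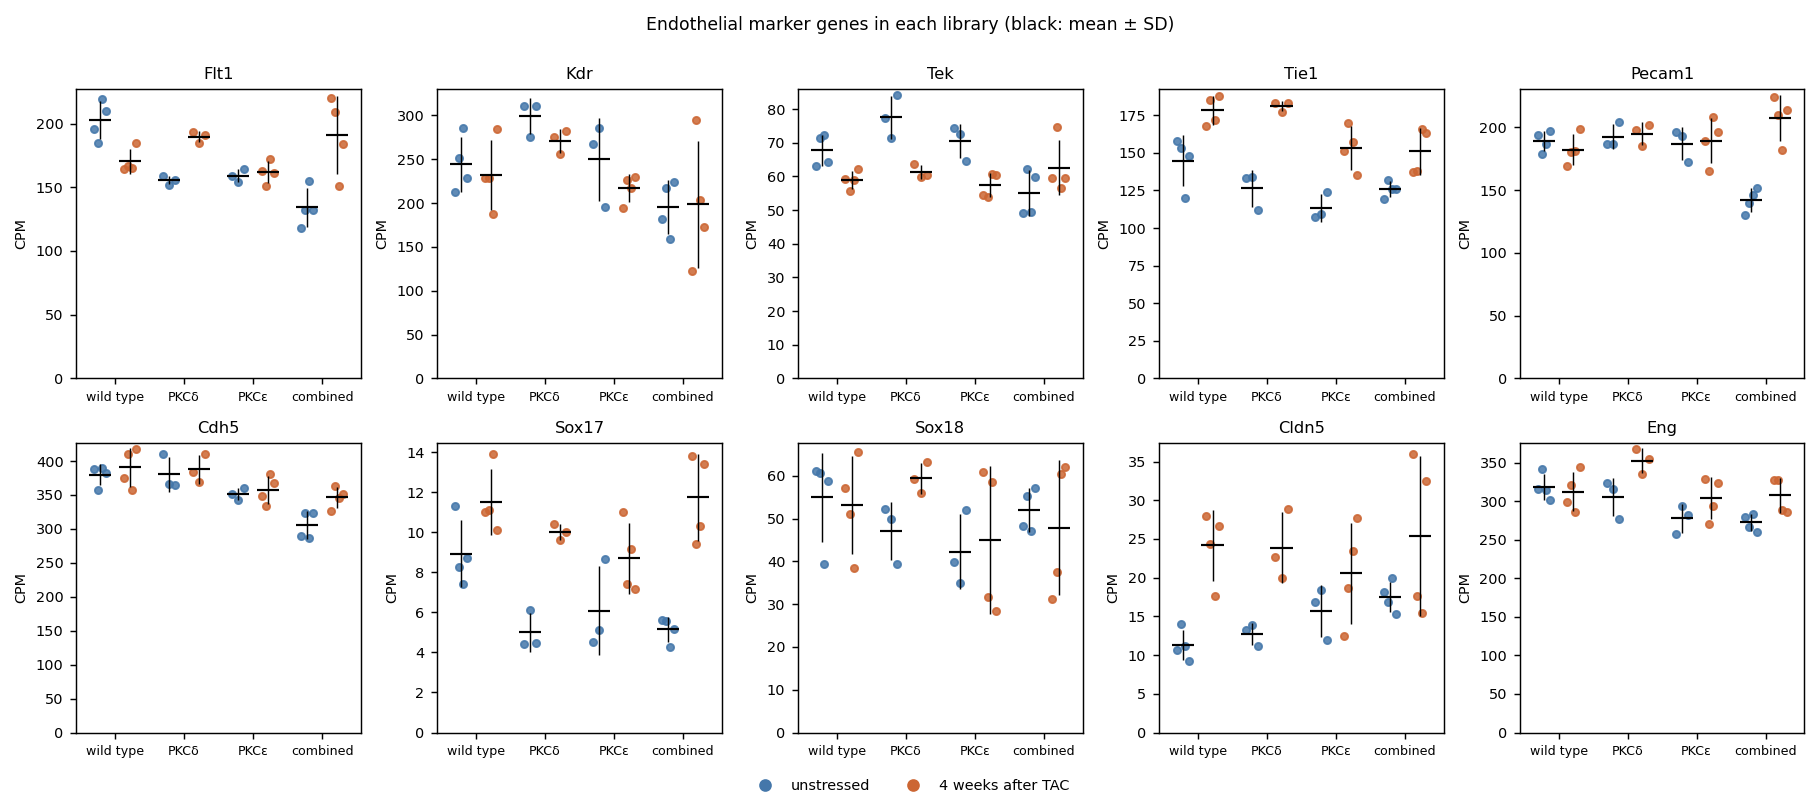
Level of each of the 10 genes in CPM (vertical axes, linear, each panel with its own scale) in every library, by genotype on the horizontal axis, with blue points for unstressed and orange points for TAC libraries and black bars for mean ± SD. Flt1, Pecam1 and Cdh5 lie lowest in unstressed combined hearts, Tie1 and Cldn5 lie higher after TAC in wild-type hearts, and Kdr and Sox18 scatter widely within groups.

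In unstressed hearts, combined ablation came with lower levels of most of these genes. Against wild-type, 6 of 10 were called lower and none higher: Flt1, Tek, Pecam1, Cdh5, Sox17 and Eng. A gene is called here where edgeR's quasi-likelihood test gave a Benjamini-Hochberg adjusted p below 0.05 over all genes tested, and differences below are log2 ± SE with that adjusted p in brackets. In the same comparison 13.9% of all genes were called lower and 15.3% higher. The members' median log2 fold change was -0.30, beside -0.00 over all genes, and 7 of 10 members did not overlap between the groups, the 6 called ones and Cldn5, which lay higher. Of all genes, 29.5% did not overlap there. The summed level of the 10 genes was 1239 to 1356 CPM in combined hearts and 1610 to 1646 CPM in wild-type hearts. The single ablations called fewer members. PKCdelta hearts had Flt1 and Sox17 called lower, where 2.73% of all genes were, with a members' median of -0.03. PKCepsilon hearts had Flt1 and Tie1 called lower, where 1.47% of all genes were, with a members' median of -0.16. The PKCdelta count was 1 without wild-type unstressed replicate 1 and 0 without PKCdelta unstressed replicate 1 or 3. The PKCepsilon count was 1 without wild-type unstressed replicate 2 or 3, and 0 without wild-type unstressed replicate 1 or 4 or PKCepsilon unstressed replicate 1 or 2. All 3 ablations were set against the same 4 wild-type libraries.

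After TAC the genes went different ways. Averaged over the 4 genotypes, 6 of 10 were called higher, Flt1, Tie1, Pecam1, Sox17, Cldn5 and Eng, and Tek alone was called lower. Of the PKCdelta TAC libraries replicate 1 alone is labelled male, and of the combined TAC libraries replicate 3 alone. All 14 unstressed libraries are labelled male and 6 of the 15 TAC libraries female. With that label as a term, Flt1 (0.06, adjusted p = 0.33), Pecam1 (0.08, 0.17) and Eng (0.09, 0.12) were no longer called, nor were they among libraries labelled male (0.3, 0.13 and 0.059). Of all genes, 28.1% were called higher and 28.9% lower by the average, and the members' median was 0.13 beside -0.00. In wild-type hearts 2 rose (Tie1 and Cldn5; background 17.8%) and 1 fell (Flt1; background 17.9%). In PKCdelta hearts 4 rose (Flt1, Tie1, Sox17 and Cldn5; background 12.9%) and Tek fell (background 14%). In PKCepsilon hearts Tie1 rose (background 14.5%) and Tek fell (background 14.3%). In combined hearts 5 rose, Flt1, Tie1, Pecam1, Cdh5 and Sox17 (background 22%), and none fell (background 21.8%). The PKCdelta count of 5 became 3 without its unstressed replicate 1 or TAC replicate 3 and 2 without its unstressed replicate 3. The PKCepsilon count of 2 became 1 without its unstressed replicate 1 or 2, and the combined count of 5 became 8 without combined TAC replicate 3. Leaving out both doubted TAC libraries kept the count at 5 in combined hearts, with Cldn5 called in place of Cdh5. Beside the average, the share of reads aligned to more than 1 place was 8.01% to 9.57% in unstressed and 11% to 14.2% in TAC libraries, whose part in these results was not tested.

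**Figure D2:**
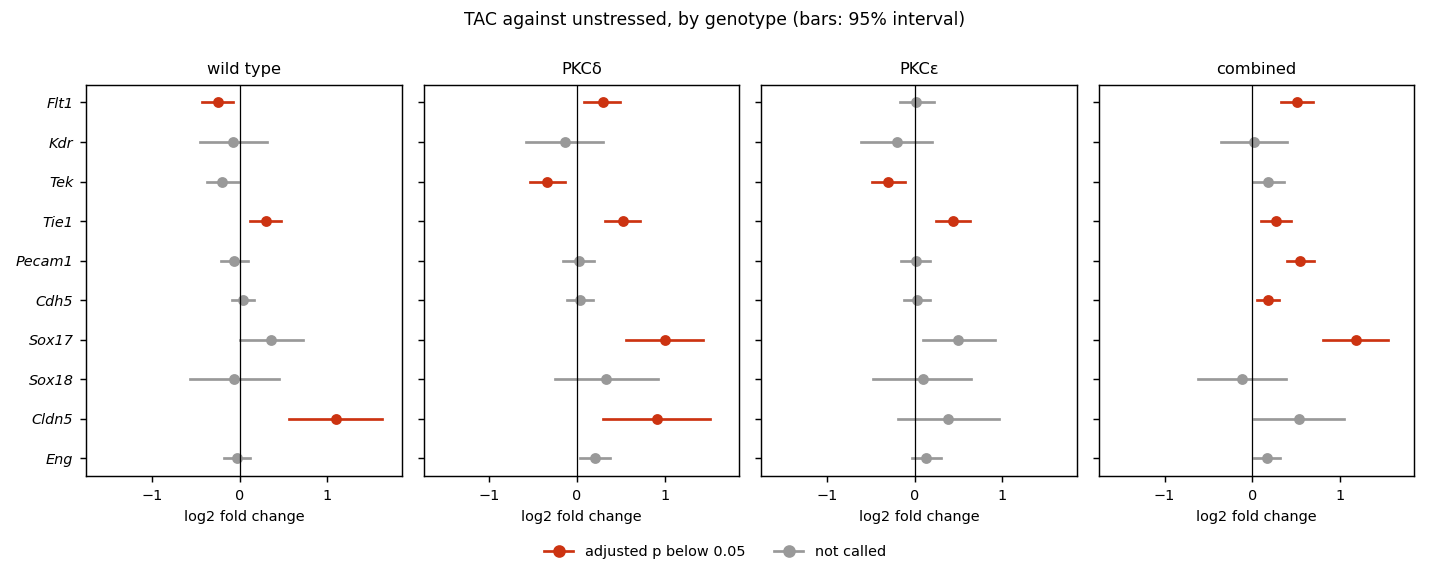
Log2 fold change of TAC against unstressed for the 10 genes in each of the 4 genotypes, with 95% intervals from edgeR's quasi-likelihood fit and points in red where the adjusted p was below 0.05. Tie1 is called higher in all 4 genotypes, Tek lies below 0 in 3 genotypes and above 0 in combined hearts, and Flt1 lies below 0 in wild-type and above 0 in combined hearts.

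Flt1 (GRCm38 chr5:147561604-147726438), the high-affinity VEGF receptor, was the member called lower in all 3 ablations. In unstressed hearts it stood at 196, 185, 219 and 210 CPM in wild-type, 159, 152 and 156 CPM in PKCdelta, 159, 154 and 164 CPM in PKCepsilon, and 118, 132, 155 and 132 CPM in combined libraries. Every wild-type library was above every library of the 3 ablations, and the ablations overlapped among themselves. The log2 difference from wild-type was -0.38 ± 0.09 (SE) in PKCdelta (adjusted p = 0.015), -0.35 ± 0.09 in PKCepsilon (0.031) and -0.60 ± 0.09 in combined hearts (8.9e-06). The combined difference was called under every alternative run, including each library left out. Without PKCdelta unstressed replicate 1 or 3 the adjusted p of the PKCdelta difference was 0.051 and 0.065, and with close pairs summed 0.062. The PKCepsilon call ended without any of 5 libraries: wild-type unstressed replicates 1, 3 and 4 (0.065, 0.093 and 0.085) and PKCepsilon unstressed replicates 1 and 2 (0.13 and 0.15). It also ended with close pairs summed (-0.34, 0.28).

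After TAC the wild-type libraries no longer stood above those of the ablations. Flt1 measured 164, 167, 165 and 185 CPM in wild-type, 193, 185 and 191 CPM in PKCdelta, 163, 151, 172 and 161 CPM in PKCepsilon, and 220, 209, 151 and 184 CPM in combined libraries. Groups overlapped, apart from the PKCdelta libraries lying above the PKCepsilon ones. Flt1 fell with TAC in wild-type hearts (-0.25 ± 0.08, adjusted p = 0.021), and rose in PKCdelta (0.29 ± 0.10, 0.029) and combined hearts (0.51 ± 0.09, 1.7e-05). The lowest combined TAC library overlapped the unstressed ones. In PKCepsilon hearts the TAC difference was 0.02 ± 0.09 (0.87, interval -0.17 to 0.22). In wild-type hearts the TAC call ended without unstressed replicate 3 (-0.21, 0.084) or 4 (-0.23, 0.059), or TAC replicate 1 (-0.23, 0.058) or 3 (-0.24, 0.053), and with close pairs summed (-0.25, 0.059). In PKCdelta hearts it ended without unstressed replicate 1, 2 or 3 (0.054, 0.074 and 0.074) or TAC replicate 1 or 3 (0.079 and 0.07). Y-linked transcripts moved with that comparison: they summed to 0 to 0.075 CPM in the 3 unstressed and 25.7 to 36.4 CPM in the 3 TAC libraries of PKCdelta hearts, and with a Y-linked score as a term Flt1 gave 0.23 (0.13). With the sex label as a term it gave 0.16 (0.26) and with close pairs summed 0.29 (0.082). Among libraries labelled male it was 0.32, where TAC replicate 1 alone remained. In combined hearts the difference was 0.17 among libraries labelled male, where TAC replicate 3 alone remained.

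Kdr (chr5:75932827-75979072), the main VEGF receptor, was called in none of the 14 comparisons. In unstressed hearts it ranged from 212 to 285 CPM in wild-type, 275 to 311 CPM in PKCdelta, 196 to 286 CPM in PKCepsilon and 159 to 224 CPM in combined libraries. After TAC it ranged from 187 to 284, 256 to 282, 194 to 230 and 123 to 295 CPM in the same order. The spread within groups was wide, above all in combined TAC hearts, where the library labelled combined TAC replicate 2 held the highest and replicate 1 the lowest value. The combined difference in unstressed hearts was -0.32 ± 0.18 with a 95% interval of -0.70 to 0.06 (adjusted p = 0.2), so a drop as large as that of Flt1 lies within it. The averaged TAC difference of Kdr was -0.10 ± 0.10 (0.39). The quotient of Flt1 over Kdr in CPM was 0.522 ± 0.0282 (SD, n = 3) in unstressed and 0.701 ± 0.0215 (n = 3) in TAC hearts with PKCdelta ablation, with no overlap. In combined TAC hearts it ran from 0.708 to 1.79.

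Tie1 (chr4:118471191-118489849) was called higher with TAC in each genotype, and no other member was. Sox17 and Cldn5 also lay higher with TAC in each genotype by larger averaged differences (0.76 ± 0.10 and 0.73 ± 0.14, beside 0.38 ± 0.04 for Tie1), but missed the threshold in some genotypes. Wild-type hearts went from 158, 153, 120 and 148 CPM to 168, 185, 172 and 188 CPM, and PKCdelta hearts from 133, 134 and 112 CPM to 183, 177 and 183 CPM. PKCepsilon hearts went from 107, 109 and 124 CPM to 151, 170, 157 and 135 CPM, and combined hearts from 119, 132, 126 and 126 CPM to 137, 138, 166 and 163 CPM. In none of the 4 genotypes did TAC and unstressed libraries overlap. The log2 differences were 0.30 ± 0.08 (adjusted p = 0.0063), 0.52 ± 0.10 (0.00022), 0.44 ± 0.09 (0.00069) and 0.27 ± 0.08 (0.0096), and all 4 calls held under every alternative run. None of the 3 ablations differed from wild-type in this TAC effect (0.22 ± 0.13, 0.14 ± 0.12 and -0.03 ± 0.12, adjusted p = 0.46, 0.86 and 0.9). In unstressed PKCepsilon hearts Tie1 was lower than in wild-type, with overlap, by -0.36 ± 0.09 (0.027), a call lost without wild-type unstressed replicate 1, 2 or 4 (0.11, 0.058 and 0.067) or PKCepsilon unstressed replicate 1 or 2 (0.18 and 0.14). It was also lost with close pairs summed (-0.30, 0.36) and with the groups compared alone (-0.35, 0.054). The combined difference in unstressed hearts missed the threshold (-0.21 ± 0.08, 0.059) and passed it without wild-type unstressed replicate 3, the lowest of its group (-0.29, 0.0099), PKCepsilon unstressed replicate 3 (-0.22, 0.049) or PKCepsilon TAC replicate 4 (-0.21, 0.049).

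Tek (chr4:94739086-94874976), the partner of Tie1, moved the other way in the single ablations. It measured 63.2, 71.3, 72.2 and 64.3 CPM in unstressed and 59.2, 55.8, 58.9 and 62.3 CPM in TAC wild-type hearts. PKCdelta hearts gave 77.3, 71.3 and 84.1 CPM against 63.8, 59.7 and 60.4 CPM, and PKCepsilon hearts 74.3, 72.6 and 64.7 CPM against 54.5, 54.0, 60.6 and 60.4 CPM. All TAC libraries of these 3 genotypes were below their unstressed ones, with calls in PKCdelta (-0.34 ± 0.10, adjusted p = 0.0097) and PKCepsilon hearts (-0.30 ± 0.09, 0.014) and not in wild-type hearts (-0.20 ± 0.08, 0.069). The PKCdelta call was lost without its unstressed replicate 3 (-0.28, 0.073). Among libraries labelled male, where PKCdelta TAC replicate 1 alone remained, the difference was -0.27. The PKCepsilon call was lost without its unstressed replicate 1 (-0.26, 0.083) or 2 (-0.27, 0.062) and with close pairs summed (-0.27, 0.073). Wild-type hearts gained the call without the library labelled combined TAC replicate 2 (-0.20, 0.038).

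In combined hearts Tek stood lower from the start, at 49.2, 62.1, 49.3 and 59.9 CPM unstressed, and at 59.6, 74.8, 56.6 and 59.6 CPM after TAC, with overlap. Unstressed, each combined library lay below each wild-type library, by a log2 difference of -0.29 ± 0.08 (adjusted p = 0.0097), which became -0.25 (0.053) without combined unstressed replicate 1. The TAC difference within combined hearts was 0.18 ± 0.08 (0.082). It passed the threshold without combined unstressed replicate 2 (0.24, 0.03) or 4 (0.24, 0.043) or combined TAC replicate 3 (0.23, 0.041). As CPM, the quotient of Tie1 over Tek went from 2.16 ± 0.359 (SD, n = 4) to 3.02 ± 0.208 (n = 4) in wild-type, from 1.64 ± 0.28 to 2.95 ± 0.079 (n = 3 each) in PKCdelta and from 1.62 ± 0.259 (n = 3) to 2.68 ± 0.378 (n = 4) in PKCepsilon hearts, without overlap. In combined hearts it was 2.29 ± 0.221 unstressed and 2.46 ± 0.487 after TAC (n = 4 each), and the ranges overlapped.

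**Figure D3:**
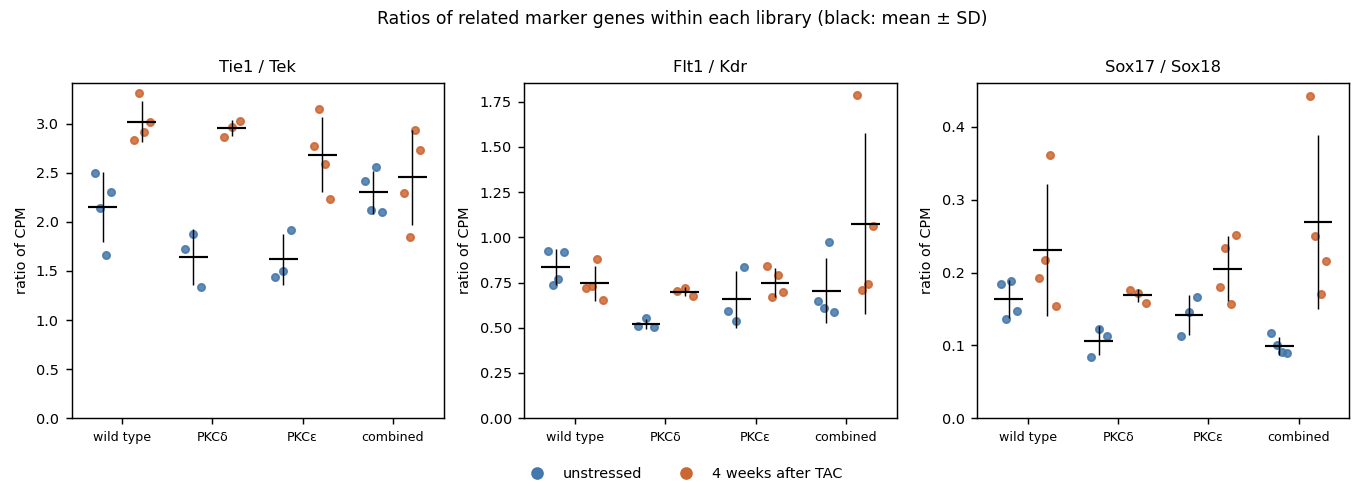
Quotients of CPM for Tie1 over Tek, Flt1 over Kdr and Sox17 over Sox18 in each library (vertical axes, linear), by genotype, with blue points for unstressed and orange points for TAC libraries and bars for mean ± SD. The quotient of Tie1 over Tek is higher after TAC without overlap in wild-type, PKCdelta and PKCepsilon hearts, and overlaps in combined hearts.

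Eng (chr2:32646595-32682669), the TGF-beta co-receptor, varied within a narrow range. In unstressed hearts it lay at 302 to 342 CPM in wild-type, 277 to 323 CPM in PKCdelta, 257 to 294 CPM in PKCepsilon and 260 to 283 CPM in combined libraries. The difference from wild-type was called in combined hearts (-0.22 ± 0.07, adjusted p = 0.02) and not in PKCepsilon hearts (-0.20 ± 0.08, 0.18), though neither group overlapped wild-type. Without wild-type unstressed replicate 2 or combined unstressed replicate 4 the combined difference was -0.20 (0.059 and 0.058), and with close pairs summed -0.23 (0.057). After TAC the ranges were 286 to 344, 335 to 368, 271 to 329 and 286 to 328 CPM in the same order. Eng was called higher by the averaged TAC effect (0.12 ± 0.04, 0.0083) but in no genotype taken alone. That averaged call was lost with the sex label as a term (0.09, 0.12) and among libraries labelled male (0.11, 0.059). In combined hearts it stood at 0.17 ± 0.07 (0.053), beside 0.18 (0.043) with DESeq2. That difference passed the threshold without wild-type unstressed replicate 2 or 4, PKCdelta unstressed replicate 2 or 3, any PKCepsilon unstressed library, wild-type TAC replicate 3 or 4, PKCepsilon TAC replicate 1 or 2, or combined TAC replicate 3 or 4, with 0.17 to 0.21 (0.031 to 0.05). In PKCdelta hearts the TAC difference was 0.21 ± 0.08 (0.063), with no overlap. It passed the threshold with DESeq2 (0.23, 0.034), the groups compared alone (0.22, 0.016), RLE normalization (0.23, 0.044), no filter (0.23, 0.046) and Rn45s left out (0.23, 0.045). It also passed without combined unstressed replicate 4 (0.23, 0.042) and without both doubted libraries (0.22, 0.042).

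Pecam1 (chr11:106654213-106715281), the adhesion molecule CD31, had its lowest levels in unstressed combined hearts. It measured 194, 179, 187 and 197 CPM in unstressed wild-type and 130, 140, 146 and 152 CPM in unstressed combined libraries, with no overlap and a log2 difference of -0.42 ± 0.07 (adjusted p = 9.7e-05). In unstressed PKCdelta hearts the difference was 0.03 ± 0.08 (interval -0.14 to 0.19) and in PKCepsilon hearts -0.02 ± 0.08 (-0.18 to 0.15). Combined libraries rose with TAC to 224, 210, 182 and 214 CPM (0.55 ± 0.07, 5.7e-07), and each TAC library was above each unstressed one. In wild-type hearts the TAC difference was -0.06 ± 0.07 (interval -0.21 to 0.10), at 169, 180, 181 and 199 CPM. The lower start and the rise in combined hearts were both called under every alternative run.

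Cdh5 (chr8:104101613-104144504), the cadherin of endothelial junctions, shared the lower start with a smaller rise. Unstressed wild-type libraries gave 389, 358, 390 and 383 CPM, and combined ones 290, 324, 287 and 324 CPM, again with no overlap (-0.31 ± 0.06, adjusted p = 0.0005, called under every alternative run). The difference from wild-type was 0.00 ± 0.07 in PKCdelta hearts (interval -0.14 to 0.14) and -0.11 ± 0.07 in PKCepsilon hearts (0.43). Combined TAC libraries reached 326, 363, 346 and 351 CPM (0.18 ± 0.06, 0.023). That rise lost its call without combined unstressed replicate 1 (0.16, 0.068) or 3 (0.15, 0.083) or the library labelled combined TAC replicate 2 (0.16, 0.061). It was also lost with the sex label as a term (0.14, 0.18) and with the groups compared alone (0.19, 0.077). Among libraries labelled male, where combined TAC replicate 3 alone remained, the rise was 0.18. In the other 3 genotypes the TAC difference was between 0.03 and 0.04, with no interval beyond -0.12 or 0.18. Averaged over the genotypes it was 0.07 ± 0.03 (0.084), and it passed the threshold without PKCdelta unstressed replicate 1 (0.08, 0.041), combined unstressed replicate 4 (0.09, 0.028) or wild-type TAC replicate 3 (0.08, 0.045).

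Cldn5 (chr16:18776847-18778262), the tight junction protein, lay higher where Cdh5 and Pecam1 lay lower. In unstressed hearts it measured 10.7, 14, 11.2 and 9.29 CPM in wild-type, 13.2, 13.9 and 11.2 CPM in PKCdelta, 16.8, 18.4 and 12 CPM in PKCepsilon and 18.1, 16.9, 19.9 and 15.3 CPM in combined libraries. Every combined library was above every wild-type one, yet the difference missed the threshold (0.63 ± 0.26, adjusted p = 0.073). DESeq2 gave 0.63 (0.027) and a fit of those groups alone 0.63 (0.0025), and it also passed without PKCepsilon TAC replicate 1 (0.05) or combined TAC replicate 3 (0.048), whose libraries bear on it through the shared spread. With the Y-linked score as a term the difference was 0.60 (0.045), and among libraries labelled male 0.63.

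With TAC, Cldn5 reached 28, 24.4, 17.6 and 26.7 CPM in wild-type hearts, a 2.14-fold rise (1.10 ± 0.26, adjusted p = 0.0021) called under every alternative run. PKCdelta hearts rose to 22.7, 20 and 28.9 CPM (0.91 ± 0.30, 0.026). PKCepsilon hearts spread over 12.5, 18.7, 23.4 and 27.7 CPM (0.38 ± 0.28, 0.32), and combined hearts over 36, 17.6, 15.4 and 32.5 CPM (0.53 ± 0.25, 0.086). In the latter 2 genotypes TAC and unstressed libraries overlapped, and the difference of either from the wild-type TAC effect was not called (-0.71 ± 0.38, 0.69, and -0.56 ± 0.36, 0.26). The PKCdelta call was lost without its unstressed replicate 1 (0.058) or 3 (0.1) or its TAC replicate 3 (0.11), and with the Y-linked score (0.51, 0.2) or the sex label (0.64, 0.15) as a term. Among libraries labelled male, where PKCdelta TAC replicate 1 alone remained, the PKCdelta difference was 0.84. With close pairs summed it was 0.97 (0.05), on the threshold. The combined difference gained the call without the library labelled combined TAC replicate 2 (0.67, 0.038) or replicate 3 (0.71, 0.019). It also gained it with DESeq2 (0.53, 0.046) and with the Y-linked score as a term (0.64, 0.018). As CPM, the quotient of Cldn5 over Cdh5 went from 0.0299 to 0.0618 in wild-type hearts.

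Sox17 (chr1:4490928-4497426), the arterial transcription factor, was the least abundant member and showed the largest fold changes beside Cldn5. Unstressed it measured 11.3, 8.26, 7.43 and 8.69 CPM in wild-type, 4.42, 6.11 and 4.46 CPM in PKCdelta, 4.5, 5.11 and 8.64 CPM in PKCepsilon and 5.61, 5.57, 4.26 and 5.15 CPM in combined libraries. PKCdelta and combined libraries lay below all wild-type ones, and PKCepsilon replicate 3 alone among its group reached the wild-type range. The difference was -0.84 ± 0.20 in PKCdelta (adjusted p = 0.014), -0.55 ± 0.20 in PKCepsilon (0.15) and -0.80 ± 0.18 in combined hearts (0.0016). Without PKCepsilon unstressed replicate 3 the PKCepsilon difference was -0.90 (0.016). The PKCdelta call was lost without wild-type unstressed replicate 1 (-0.71, 0.072) or PKCdelta unstressed replicate 1 or 3 (-0.77, 0.084 and 0.095) and with close pairs summed (-0.80, 0.055), while the combined call held under every alternative run.

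After TAC, Sox17 measured 11, 11.1, 13.9 and 10.1 CPM in wild-type, 10.4, 9.6 and 10 CPM in PKCdelta, 11, 7.42, 9.17 and 7.17 CPM in PKCepsilon and 13.8, 9.43, 10.3 and 13.4 CPM in combined libraries. In PKCepsilon hearts 3 of the 4 libraries lay below every wild-type one, with a difference of -0.40 ± 0.17 (interval -0.76 to -0.05, adjusted p = 0.36). Sox17 rose 2.27-fold in combined hearts (1.18 ± 0.18, adjusted p = 4.1e-06) and by 1.0 ± 0.21 in PKCdelta hearts (0.00077), with no overlap, and both calls held under every alternative run. In wild-type hearts the difference was 0.36 ± 0.17 (0.097) and in PKCepsilon hearts 0.50 ± 0.20 (0.055). Wild-type hearts passed the threshold without their unstressed replicate 1, the highest of that group (0.50, 0.035). PKCepsilon hearts passed it without their own unstressed replicate 3 (0.86, 0.004) or TAC replicate 2 (0.58, 0.042) or 4 (0.58, 0.035), and by a small margin (0.047) without wild-type unstressed replicate 1 or the library labelled combined TAC replicate 2.

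Sox18 (chr2:181669837-181671640), its relative, was called in none of the 14 comparisons. Its libraries spread from 39.5 to 61.1 CPM in unstressed wild-type and from 28.5 to 61 CPM in PKCepsilon TAC hearts. In PKCdelta hearts they went from 52.2, 49.9 and 39.5 CPM to 59.2, 55.9 and 63.2 CPM with TAC, without overlap. That difference was 0.33 ± 0.28 (adjusted p = 0.41), and 0.35 (0.0073) with the groups compared alone, where it passed the threshold. In combined hearts, 2 TAC libraries lay at 31.2 and 37.6 CPM, below all unstressed ones, and 2 at 60.4 and 62.2 CPM, above them. Its interval for the unstressed combined difference was -0.59 to 0.42, and for the averaged TAC effect -0.21 to 0.33. The CPM quotient of Sox17 over Sox18 was 0.0898 to 0.116 in unstressed combined hearts and 0.17 to 0.442 after TAC, without overlap.

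**Figure D4:**
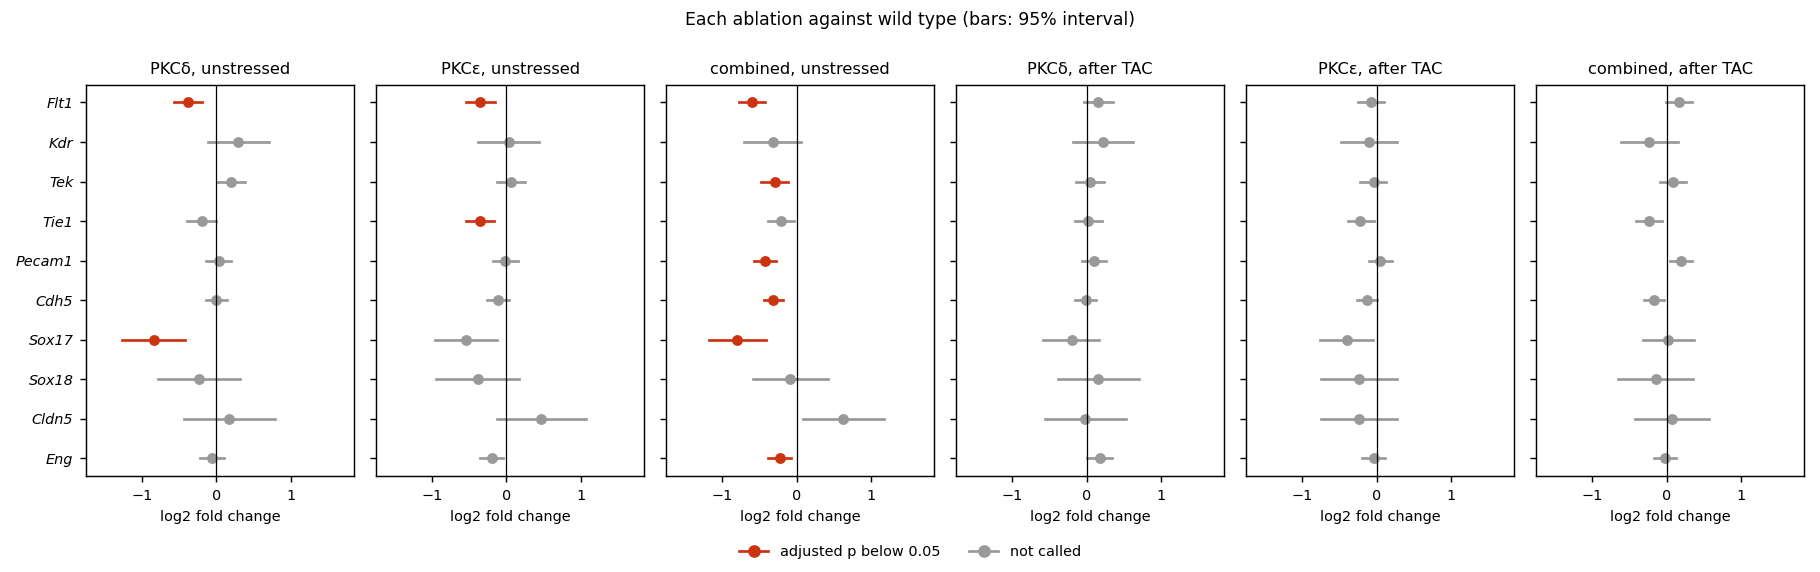
Log2 difference of each ablation from wild-type for the 10 genes, with 95% intervals, in unstressed hearts and after TAC, with points in red where the adjusted p from edgeR's quasi-likelihood test was below 0.05. In unstressed hearts Flt1 lies below 0 in all 3 ablations and 6 genes are called lower in combined hearts, while after TAC no gene is called in any ablation.

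Among hearts after TAC, no member was called between any ablation and wild-type by edgeR's quasi-likelihood test. At an unadjusted p under 0.05 the numbers were 1 in PKCdelta, 2 in PKCepsilon and 3 in combined hearts, beside 5.73%, 11.3% and 24% of all genes, so the members' shares lay near the background. DESeq2 called 0, 0 and 1 members. At the adjusted threshold 0% of all genes were called in PKCdelta, 0.0436% in PKCepsilon and 6.76% in combined hearts, so the first 2 comparisons called next to nothing anywhere. The members with the smallest p in combined hearts were Tie1 (-0.24 ± 0.08, interval -0.41 to -0.06, adjusted p = 0.08), Pecam1 (0.19 ± 0.07, 0.11), Cdh5 (-0.17 ± 0.06, 0.091) and Flt1 (0.17 ± 0.08, 0.23). Tie1 did not overlap between the groups, at 137 to 166 CPM in combined and 168 to 188 CPM in wild-type libraries. Without combined TAC replicate 3 the calls were Flt1 (0.26, 0.027), Tie1 (-0.28, 0.039) and Pecam1 (0.25, 0.031). For Sox17 the interval ran from -0.32 to 0.37.

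Tests of the difference between TAC effects called members in combined and PKCdelta hearts and none in PKCepsilon hearts. The TAC effect in combined hearts minus that in wild-type hearts was called for 4 members, all higher, where 12.6% of all genes were called higher. These were Flt1 (0.76 ± 0.12, adjusted p = 6.8e-05), Pecam1 (0.61 ± 0.10, 0.00013), Sox17 (0.82 ± 0.25, 0.015) and Tek (0.38 ± 0.12, 0.02). Flt1 and Pecam1 held under every alternative run. Tek lost its call without combined unstressed replicate 1 (0.33, 0.059), without the library labelled combined TAC replicate 2 (0.28, 0.063) and without both doubted libraries (0.25, 0.13). It also lost it with the sex label as a term (0.34, 0.058) and with the groups compared alone (0.38, 0.052). Among libraries labelled male, where combined TAC replicate 3 alone remained, Tek gave 0.25 and Sox17 0.56. Each of these differences holds the lower unstressed level of the combined hearts within it. For PKCdelta 1 member, Flt1, was called (0.54 ± 0.13, 0.03), where 0.458% of all genes were called higher. That call ended without any of the PKCdelta libraries, wild-type unstressed replicate 3 or 4, or wild-type TAC replicate 1, 2 or 3, with 0.50 to 0.56 (0.051 to 0.099). It also ended with the sex label (0.46, 0.066) or the Y-linked score (0.48, 0.069) as a term and with close pairs summed (0.54, 0.17). For PKCepsilon no member was called by edgeR's quasi-likelihood test or by DESeq2, and 0.0363% of all genes were called. At an unadjusted p under 0.05 there was 1 member of 10, beside 7.87% of all genes.

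The 10 genes did not vary as a unit. Over the 29 libraries, log2 CPM of Tie1, Cdh5 and Eng followed the mean of the other 9 members with Pearson correlations of 0.70, 0.69 and 0.69, Flt1 with 0.60, Pecam1 with 0.59 and Sox17 with 0.52. Sox18 (0.16), Cldn5 (0.13), Kdr (-0.02) and Tek (-0.06) did not. As deviations from group means these values were 0.60 for Cdh5, 0.39 for Pecam1, 0.30 for Eng, 0.16 for Tie1, 0.12 for Flt1 and Tek, and -0.18 to 0.13 for the others. Among pairs, Tie1 with Sox17 and Flt1 with Pecam1 reached 0.75 and Kdr with Tek 0.70, while Tek with Tie1 gave -0.40 and Flt1 with Kdr 0.07. For deviations from group means, Tie1 with Sox17 gave 0.34, Flt1 with Pecam1 0.66 and Kdr with Tek 0.71. Tek with Tie1 then gave -0.42 and Flt1 with Kdr -0.10. These are descriptions, since all points share libraries, depth and group. Of 10236 genes compared, those nearest to the members' centred mean over the 29 libraries were Tgfb1i1 (0.86), Esam (0.84), Tbx2 (0.84), Fgd5 (0.83), Tcf4 (0.83), Thsd1 (0.83), Plekhg2 (0.83) and Mrpl11 (0.82). Esam is an endothelial adhesion molecule. Within groups, as deviations from the group mean, the nearest were Pkdcc (0.75) and Tbx2 (0.72), and then Ppm1f, Upp1, Zfp386, Trim25, Fam178a and Prps2 at 0.63 to 0.67.

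Other endothelial genes were read from lists by vessel type and role, some of which share genes. The capillary list also holds the member Kdr, and the arterial list the member Sox17. Of 24 further pan-endothelial genes tested, 13 were called lower and none higher in unstressed combined hearts against wild-type, with a median of -0.26. Leading them were Eltd1, an adhesion receptor of endothelium, at 25.7 ± 3.42 CPM against 45.6 ± 6.55 CPM (SD, n = 4 each; -0.83 ± 0.11, adjusted p = 3.8e-06), and Gpr116 (-0.78 ± 0.11, 7.8e-06). Ptprb, the phosphatase that dampens Tek, stood at 207 ± 9.03 CPM against 311 ± 30.4 CPM (-0.59 ± 0.09, 2.9e-05). With TAC in combined hearts 16 of the 24 were called higher and 1 lower, with a median of 0.39. Emcn, a sialomucin of capillaries and veins, went from 9.6 ± 1.78 to 20.2 ± 4.11 CPM (1.07 ± 0.15, 2.3e-06), and Cd34 from 71.3 ± 11.9 to 111 ± 6.29 CPM (0.64 ± 0.08, 3.7e-07). Without the doubted libraries the count was 15 higher and 1 lower. Libraries labelled male left combined TAC replicate 3 alone in its group, so no count is given for them. In wild-type hearts TAC called 4 of the 24 higher, among them Nos3, the endothelial nitric oxide synthase (0.46 ± 0.10, 0.001), and 6 lower, among them Gpr116 (-0.60 ± 0.11, 9.6e-05) and Ptprb (-0.37 ± 0.09, 0.0022). There 17.8% of all genes were called higher and 17.9% lower. The exons of Nos3 overlap genes on the other strand, Atg9b and Gm15587, over 32.3% of their length, so some of its reads could belong to those genes.

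By vessel type, 7 of 14 capillary genes were called lower in unstressed combined hearts, among them Fabp4, a fatty acid carrier (-0.61 ± 0.10, adjusted p = 7.9e-05), and Rgcc (-1.31 ± 0.30, 0.0026). Of 12 arterial genes 3 were called lower: the member Sox17, the Notch target Hey1 (-0.74 ± 0.16, 0.00065) and the ephrin Efnb2 (-0.53 ± 0.11, 0.0008). Of 8 venous genes 2 were called lower, and of all genes 13.9% were in that comparison. With TAC in combined hearts the calls were 5 of 14 capillary, 6 of 12 arterial and 2 of 8 venous genes, all higher. The member Sox17 is among the arterial ones, and 22% of all genes were called higher there. The summed capillary level overlapped in combined hearts, at 3986 to 4885 CPM unstressed and 4259 to 5917 CPM after TAC. In the other genotypes that sum was lower after TAC, without overlap. It was 5480 to 6093 CPM unstressed and 3927 to 4605 CPM after TAC in wild-type hearts. PKCdelta hearts gave 5588 to 5928 and 4578 to 4774 CPM, and PKCepsilon hearts 5224 to 5685 and 4459 to 5213 CPM. Of the 14 junction partners, 5 were called higher and 2 lower in unstressed combined hearts, led by Jup, the plakoglobin that muscle cells also use (0.46 ± 0.06, 7.1e-06). After TAC 2 of the 14 were called higher and 7 lower there.

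Ligands of these receptors were also measured. Angpt1, the ligand that activates Tek, was lower in unstressed combined hearts, at 10.1 ± 2.03 CPM against 19.5 ± 4.14 CPM (SD, n = 4 each; -0.96 ± 0.25, adjusted p = 0.0057). It fell with TAC in wild-type hearts to 7.59 ± 1.77 CPM (-1.37 ± 0.25, 0.00021) and over the 4 genotypes by an average of -1.34 ± 0.14 (9.3e-09). The exons of Angpt1 overlap Gm17473 on the other strand over 14.2% of their length. Vegfa, the ligand of Kdr and Flt1, rose with TAC by an average of 0.43 ± 0.06 (1.4e-07). Pgf, a ligand of Flt1 and not of Kdr, was lower in unstressed combined hearts (-0.92 ± 0.22, 0.002) and fell with TAC in wild-type hearts (-1.12 ± 0.22, 0.00019). Of the 10 ligands tested 6 were called higher and 2 lower by the averaged TAC effect, with Tgfb2 among those that rose (1.22 ± 0.10). Of 21 receptor partners and downstream genes 7 were called higher and 6 lower by that average. As 28.1% of all genes were called higher and 28.9% lower by it, the shares of these partners lay near the background. Acvrl1, the receptor that acts with Eng, was lower in unstressed combined hearts (-0.25 ± 0.07, 0.0042) and rose with TAC on average (0.29 ± 0.03, 3.1e-08).

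**Figure D5:**
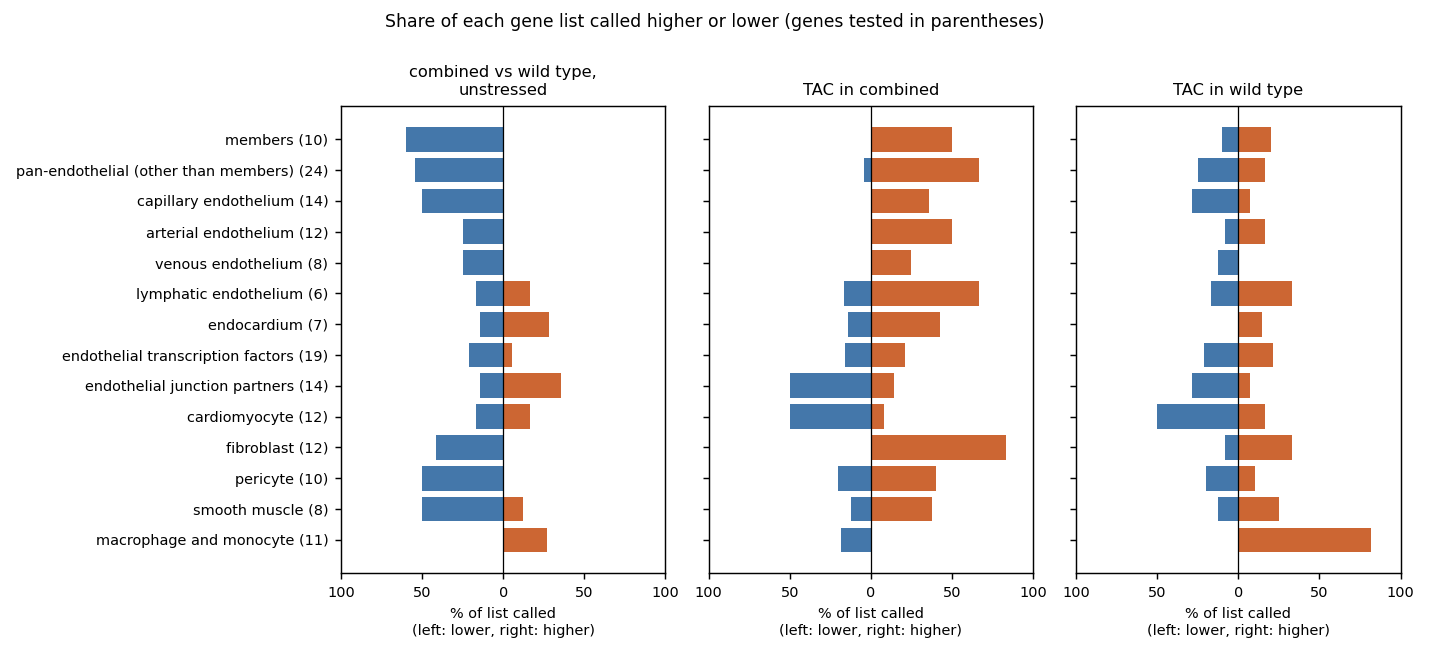
Share of each gene list, in percent of its tested genes, called higher (to the right) or lower (to the left) in combined against wild-type unstressed hearts, in combined hearts with TAC and in wild-type hearts with TAC. Of the pan-endothelial genes, 13 of 24 are called lower in unstressed combined hearts and 16 of 24 higher with TAC there.

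Markers of other cells moved in the same comparisons. Of all genes, 13.9% were called lower and 15.3% higher in unstressed combined hearts. With TAC 22% were called higher and 21.8% lower in combined hearts, and 17.8% higher in wild-type hearts. In unstressed combined against wild-type hearts, pericyte markers were called lower in 5 of 10 (summed 1133 to 1233 CPM against 1254 to 1318 CPM) and fibroblast markers in 5 of 12 (2066 to 2506 CPM against 2571 to 2735 CPM), with none higher. Macrophage markers were called higher in 3 of 11 (445 to 456 CPM against 363 to 406 CPM), proliferation genes in 3 of 12 (119 to 180 CPM against 77.9 to 94.4 CPM), and none lower. Of 8 smooth muscle markers 1 was called higher and 4 lower. The sums of these overlapped, at 3336 to 3953 CPM (mean 3639) against 3190 to 3396 CPM (mean 3323). Cardiac muscle markers were called higher in 2 and lower in 2 of 12, and their sums overlapped, at 144665 to 152110 CPM against 140750 to 160352 CPM. With TAC in combined hearts, fibroblast markers were called higher in 10 of 12, with a sum of 3592 to 4761 CPM, and cardiac muscle markers higher in 1 and lower in 6 of 12, with a sum of 116483 to 129443 CPM. In wild-type hearts with TAC, macrophage markers were called higher in 9 of 11, at 459 to 651 CPM. In combined hearts their sum was lower after TAC, at 381 to 443 CPM. Pericyte sums lay lower after TAC, at 924 to 1167 CPM in combined hearts, with overlap, and 1027 to 1177 CPM in wild-type hearts. Smooth muscle sums rose to 4996 to 7697 CPM in combined and 4957 to 5616 CPM in wild-type hearts. The fibroblast sum in wild-type hearts after TAC was 3542 to 5631 CPM. The part of these shifts in the endothelial results was not tested.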

How the data were processed

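The series holds 29 RNA libraries of mouse hearts. Per the labels' protocols, polyadenylated RNA was made into single-end libraries without strand. The authors deposited raw counts for each gene. The submitters' processing notes name the build mm10 and the tools HTSeq, Bowtie2, TopHat2 2.0.10, edgeR and DESeq. What annotation and settings were used is not given in the sources used here. Reads on more than 1 gene (0.776% to 0.942%) stood apart in the files and stayed out of library sizes. The series table and the library files held identical counts for the 23391 genes they share, and the library files were used. Coordinates and start regions are RefSeq's (GRCm38).

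Genes were tested by edgeR's quasi-likelihood test (R 4.3.3, limma 3.58.1, edgeR 4.0.16; robust, TMM, filter on low counts by group) with 8 group means, 29 libraries and 21 residual degrees of freedom, tested on simulated data first. Benjamini-Hochberg adjustment ran over 13765 genes within each of 14 comparisons, at 0.05. The sex label was no term, since sex-chromosome transcripts go against it, and served as an alternative. CPM and RPKM use the library sizes left after the filter, scaled by TMM. The CPM of Xist and the Y-linked genes use total assigned counts. Intervals are 95%. Alternatives were RLE normalization, no filter, DESeq2 1.42.0, a sex or Y-linked term, only libraries labelled male, a replicate block, only the groups compared, close pairs summed, Rn45s left out, each library left out and both doubted libraries left out. The genes described are all 10 members. From each other list, up to 4 genes with the smallest p are named, and from the likeness ranking the 8 most alike. The members and lists were chosen with earlier results of these data known, so their direction is no independent evidence. Python 3.11.15, pandas 2.3.3, numpy 2.4.6 and matplotlib 3.10.9 made the tables and plots.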

Additional observations from a re-analysis of the deposited data

Results flagged for a closer look

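Among groups of 4 libraries, 50 pairs of a gene and a group were examined for a library far from the other 3, by Dixon's ratio of its gap to the range, against the 95% critical value, and chance alone flags about 1 in 20. Flt1 stood out in wild-type TAC replicate 4, at 185 CPM (ratio 0.869). Tek stood out in the library labelled combined TAC replicate 2, at 74.8 CPM (0.837), the library whose Prkce level goes against its label. Sox18 stood out in wild-type unstressed replicate 3, at 39.5 CPM (0.894).

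The TAC effect differed from that of wild-type hearts, by the interaction term of edgeR's quasi-likelihood test, for Flt1 in PKCdelta hearts by 0.54 (adjusted p = 0.03). In combined hearts it differed for Flt1 by 0.76 (6.8e-05), Tek by 0.38 (0.02), Pecam1 by 0.61 (0.00013) and Sox17 by 0.82 (0.015), all on the log2 scale. These differences share the wild-type libraries.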

How the results depend on the processing

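No member changed direction past the threshold in any alternative. With the sex label as a term 4 members were called by the averaged TAC effect, 3 by TAC in PKCdelta hearts and 0 by the PKCdelta interaction. With a Y-linked score these last 2 were 3 and 0, and 2 members were called in combined against wild-type hearts after TAC, beside 1 with DESeq2. Among libraries labelled male, PKCdelta TAC replicate 1 and combined TAC replicate 3 stood alone in their groups, so counts of calls are not given. With 4 close pairs summed the counts were 3 (PKCdelta TAC), 1 (PKCepsilon TAC), 0 (PKCdelta unstressed), 0 (PKCepsilon unstressed) and 0 (PKCdelta interaction). In PKCepsilon against wild-type unstressed hearts 1 member was called with the groups compared alone. Leaving out each library in turn gave 7 to 8 members (average), 2 to 4 (wild-type TAC), 2 to 6 (PKCdelta TAC), 1 to 3 (PKCepsilon TAC), 4 to 8 (combined TAC), 0 to 2, 0 to 3 and 5 to 7 (PKCdelta, PKCepsilon and combined unstressed), 0 to 0, 0 to 0 and 0 to 3 (the same after TAC), and 0 to 1, 0 to 0 and 3 to 4 (their interactions). Of 140 results for single members, DESeq2 kept 134 on their side of the threshold and RLE normalization and Rn45s left out 138 each. The replicate numbers did not pair the samples (correlations of -0.108 to 0.181 between libraries of the same number), and a replicate block kept 139 and took PKCepsilon unstressed from 2 to 1, where Flt1 gave -0.34 (0.053). The causes were not tested. Depth limits Sox17 most, at 47 to 216 counts per library.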

Other observations

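Endothelial genes with other roles are given by list, beside 15.3% of all genes called higher and 13.9% lower in unstressed combined against wild-type hearts, and 22% higher and 21.8% lower with TAC in combined hearts. Endothelial transcription factors other than the members were called higher in 1 and lower in 4 of 19 in unstressed combined against wild-type hearts, and higher in 4 and lower in 3 with TAC in combined hearts. Among the latter, Klf4, a factor induced by flow, rose by 0.79 and Lmo2 by 0.76, while Erg, an ETS factor of mature endothelium, fell by 0.28 (adjusted p = 0.0026 by edgeR's quasi-likelihood test). Genes of tip cells and sprouting were called higher in 6 and lower in 1 of 11 with TAC in combined hearts, and none higher and 1 lower in unstressed combined hearts. Endothelial activation genes were called lower in 3 of 10 in unstressed combined hearts and higher in 5 of 10 with TAC there. Notch genes were called higher in 2 and lower in 1 of 13 with TAC in combined hearts, lymphatic genes higher in 4 and lower in 1 of 6, and endocardial genes higher in 3 and lower in 1 of 7. The summed lymphatic level there went the other way, from 176 to 187 CPM (mean 182) unstressed to 152 to 177 CPM (mean 162). Igfbp3 rose by 1.88 and Apln, the apelin peptide of sprouting vessels, fell by 0.86 with TAC in combined hearts. The lists share genes with the pan-endothelial list, and other cell types of the heart express some of them.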
